A study of Mus musculus with 6 samples.

Results

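Translation factors are the proteins that bring ribosomes, messenger RNA and charged transfer RNA together. Here they are the protein-coding genes whose symbol begins with EIF followed by 1 of the family numbers from 1 to 6, the eukaryotic initiation factors, or with EEF1 or EEF2, the eukaryotic elongation factors. The kinases of eIF2 and of eEF2, whose names begin in the same way, were left out. By this name rule 65 of the 58735 genes in the table were members, out of 19951 protein-coding genes. The rule also took in genes named after these factors: the inhibitors that bind eIF4E, the lysine methyltransferases of eEF1A, and read-through genes.

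The libraries came from 22Rv1, a human prostate cancer cell line. In the first group, parental cells had been kept with vehicle. In the second, the subline 22Rv1 BL-B01D1_R had been raised by culture in rising concentrations of BL-B01D1, an antibody-drug conjugate that binds both EGFR and HER3 and carries Ed-04, a topoisomerase I inhibitor. Each group had 3 libraries of polyadenylated RNA, and no engineered allele is named for either group. The study does not state whether BL-B01D1 was still in the medium when RNA was taken. Effects of exposure to the drug and of the selected state therefore cannot be told apart. The subline came from a single selection, and nothing shows that the libraries within a group came from separate selections or lines, so the p values measure only the spread between these samples, which may be technical. Mouse is the organism named in the sample labels, but the table lists human gene identifiers, and it was read as human.

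Initiation starts when eIF2 carries the initiator transfer RNA to the small ribosomal subunit, with eIF1, eIF1A, eIF3 and eIF5 bound to it. The eIF4F complex, made of the cap-binding protein eIF4E, the RNA helicase eIF4A and the scaffold eIF4G, then places this assembly at the capped end of the messenger RNA, and the 4E-BP proteins hold eIF4E away from the scaffold when they are not phosphorylated. During elongation eEF1A delivers aminoacyl transfer RNA and eEF2 moves the ribosome along. Cancer cells are known for driving eIF4F and the elongation factors through mTOR signalling, and phosphorylation of eIF2 lowers initiation in stressed cells. RNA levels, the only quantity measured here, report neither phosphorylation nor protein.

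Counts on genes totaled 13821639 to 17251491 in the parental libraries and 14820809 to 16725283 in the resistant libraries. At these depths 3 counts corresponded to 0.174 to 0.216 CPM, that is, counts scaled to a common library size. The first principal component of all genes, with 61.6% of the variance, separated the groups. All 9 markers of prostate luminal epithelium were measured, with a summed level of 3431 to 3531 CPM in parental and 3606 to 3701 CPM in resistant libraries, whereas leukocyte and endothelial markers summed to no more than 0.715 CPM. The 4 fibroblast markers summed to 111 to 114 CPM in parental and 39.0 to 43.4 CPM in resistant libraries, most of it LUM, and the 4 neuroendocrine markers to 135 to 149 and 110 to 118 CPM, with CHGA at 39.4 ± 1.59 against 8.18 ± 0.495 CPM (mean ± SD, n = 3) and SYP at 103 ± 7.63 against 106 ± 3.65 CPM (log2 fold change 0.04, FDR = 0.531). The part of these marker changes in the results below was not tested.

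Translation factor genes were abundant and changed little. Of the 65 genes, 62 entered the test. Their median level was 126 CPM, against 19.6 CPM for all 17142 genes tested, and ran from 0.614 CPM (EIF4EBP3) to 9262 CPM (EEF1A1). Their median log2 fold change, resistant over parental, was −0.01 and that of all genes tested was 0.00. An absolute log2 fold change under 0.3 was found for 55 of the 62 (88.7%), compared with 69.2% of all genes tested. Abundant genes as a whole moved less: with a mean of at least 20 CPM, 47 of 50 translation factors (94%) and 86.3% of 8503 genes stayed under 0.3.

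Differences were called with edgeR's quasi-likelihood test at a false discovery rate (FDR, the Benjamini-Hochberg adjusted p over all genes tested) under 0.05. In resistant cells 9 translation factors were called higher and 15 lower. These include EIF3CL and EIF3C, whose calls rested on single libraries. Without this pair, 8 of 60 were called higher and 14 lower. The shares, 14.5% and 24.2% of the 62, stood beside 17.1% and 18.4% of all genes tested. Among genes with a mean of at least 20 CPM, 8 of 50 factors were higher and 13 lower (16% and 26%), against 21.6% and 23.5% of the 8503. Every resistant library lay above every parental library for 13 factors, and below for 18 (21% and 29%), where all genes gave 22.1% and 22.8%. Groups without overlap were thus common among all genes. For factors that were not called, lack of overlap is given below as a description and not read as a change. An absolute log2 fold change over 1 was then required as well, the thresholds the authors used. By these, 1 factor was called higher (EIF3CL) and 2 lower (EIF4E1B and EIF4E3), against 2.53% and 2.84% of all genes. Without EIF3C and EIF3CL, 0 were higher and 2 lower. The shares lay near those of all genes, and the differences between them were not tested. The groups of factors described below are small, and no difference of a group from all genes was tested.

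Of the 24 called factors, 18 changed by less than 0.3 on the log2 scale, between −15.3% and 22.8%, and 6 by 0.3 or more. The latter were EIF4G3, EIF3CL, EIF3C, EIF4EBP1, EIF4E3 and EIF4E1B, with the calls of EIF3CL and EIF3C resting on single libraries. Of the called factors 25.0% reached 0.3, compared with 53.7% of all called genes. This comparison was not matched for level, and abundant genes as a whole moved less. Of the 38 factors not called, 30 had a 95% interval that stayed within 0.3 of 0, so larger changes lay outside their intervals. The intervals of the other 8 reached further and left such changes undetectable with the counts they had.

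**Figure D1:**
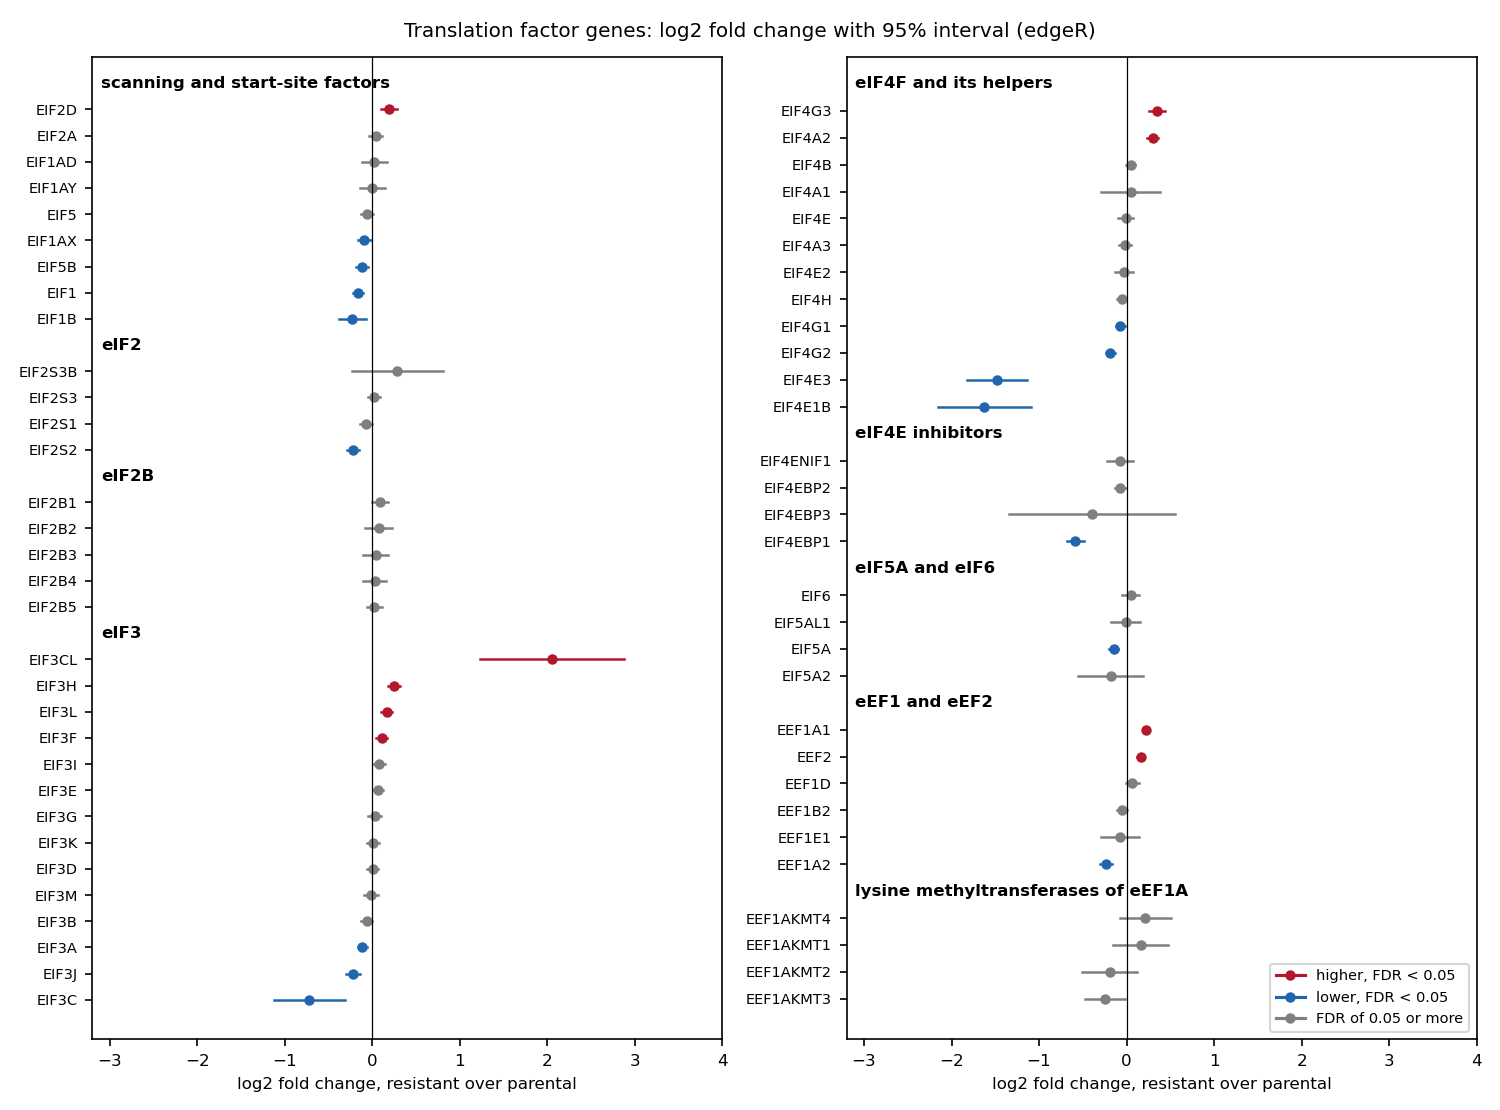
Log2 fold change (resistant over parental, x axis) of the 62 translation factors tested, by group, with points for the edgeR estimate and bars for its 95% interval. Red and blue points are the 9 higher and 15 lower factors; most sit close to 0, and EIF3CL, EIF4E3 and EIF4E1B stand out.

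**Figure D2:**
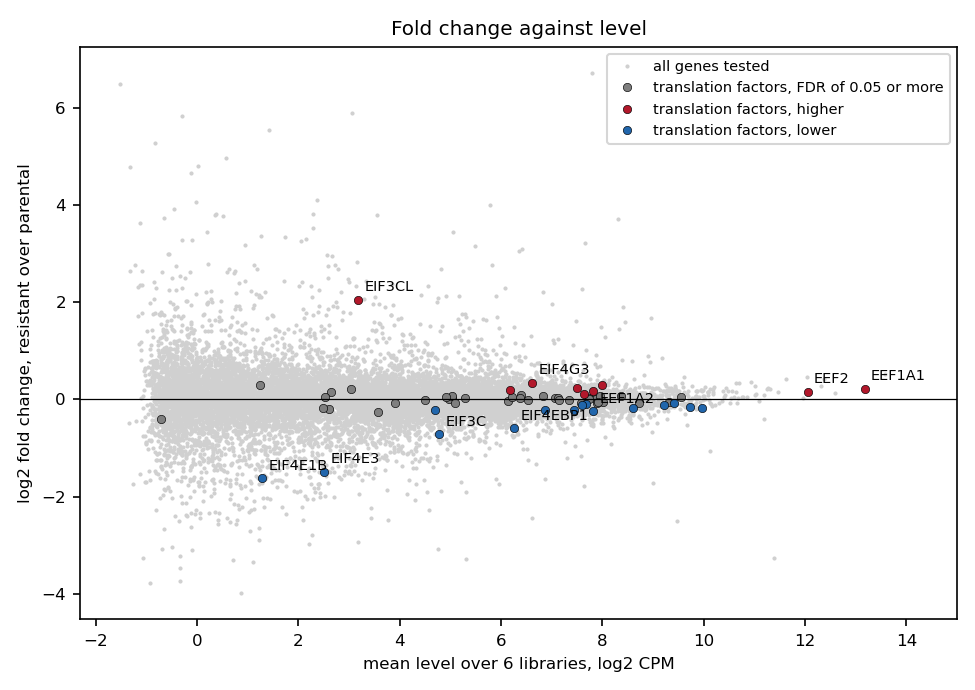
Log2 fold change (resistant over parental) against mean level over the 6 libraries (log2 CPM) for the 17142 genes tested (grey dots) and the translation factors (larger circles, coloured by call). The factors lie mostly at high levels, where the spread of all genes is narrow, and those beyond 1 on the y axis lie at low levels.

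The largest changes that kept their call in all 14 alternative fits were in genes around eIF4E, the cap-binding protein. EIF4EBP1 (ENSG00000187840, hg38 chromosome 8, 38030341 to 38060365, plus strand) encodes 4E-BP1, the best known of the proteins that hold eIF4E inactive. Its level was 89.9, 97.1 and 88.0 CPM in the 3 parental libraries and 58.7, 60.4 and 64.2 CPM in the 3 resistant libraries. All resistant libraries were below all parental ones. The level fell by 33.4% in resistant cells (log2 fold change −0.59, SE 0.05, FDR = 4.05e-13). EIF4EBP2, which encodes a second 4E-BP, lay just outside the threshold, at 243 ± 4.82 CPM in parental and 231 ± 2.94 CPM in resistant cells (log2 fold change −0.07, FDR = 0.0600), although its groups did not overlap. EIF4ENIF1, which encodes the eIF4E transporter 4E-T, had a log2 fold change of −0.07 (FDR = 0.495). EIF4EBP3 had 58 counts in all 6 libraries together and no detectable difference (log2 fold change −0.39, 95% interval −1.35 to 0.56). It lies over 99.5% of its span within the read-through gene ANKHD1-EIF4EBP3 on the same strand, which held 318 counts. Thus 1 of 4 eIF4E inhibitors fell and 3 did not pass the test, with a median log2 fold change of −0.23 for the 4. That median rests in part on EIF4EBP3, whose own value was −0.82 without resistant library 1 and −0.12 without resistant library 3.

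EIF4E itself was not called. Its level was 91.5, 95.4 and 93.4 CPM in parental and 93.9, 91.3 and 93.4 CPM in resistant libraries, and the groups overlapped (log2 fold change −0.01, 95% interval −0.09 to 0.08, FDR = 0.908). The ratio of EIF4EBP1 to EIF4E, formed from FPKM (counts per kilobase of gene length on the scale of CPM) so that both genes were on one scale, was 12.9, 13.3 and 12.3 in parental and 8.19, 8.68 and 9.002 in resistant libraries. Every resistant ratio was below every parental one. The means were 12.9 ± 0.503 and 8.62 ± 0.407 (n = 3), a difference of −4.23. The two-sided p was 0.1 by exact permutation, which is as low as 3 libraries against 3 can give. The size of this ratio depends on the deposited gene lengths, 1073 bases for EIF4EBP1 and 14067 for EIF4E. From raw counts the ratio was 0.981 ± 0.0384 in parental and 0.658 ± 0.0311 in resistant libraries.

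Of the 3 relatives of EIF4E, 2 fell. EIF4E3 (ENSG00000163412, chromosome 3, 71675416 to 71754773, minus strand), which encodes a cap-binding protein of another eIF4E class, had 147, 158 and 101 counts in parental and 48, 50 and 45 counts in resistant libraries. The groups did not overlap, and the level was 2.80-fold lower in resistant cells (8.40 ± 1.07 against 3.02 ± 0.332 CPM, log2 fold change −1.48, SE 0.17, FDR = 1.46e-09). EIF4E1B (ENSG00000175766, chromosome 5, 176630618 to 176646641, plus strand), known chiefly from oocytes, had 54, 59 and 61 counts in parental and 22, 21 and 13 counts in resistant libraries. It was 3.08-fold lower (3.68 ± 0.647 against 1.19 ± 0.336 CPM, log2 fold change −1.62, SE 0.26, FDR = 3.07e-06), also without overlap. EIF4E2, which encodes the cap-binding protein 4EHP, was at 71.2 ± 3.63 and 69.4 ± 2.96 CPM and was not called (log2 fold change −0.03, 95% interval −0.14 to 0.07). Per length, the counted levels of the fallen pair were low. In parental cells EIF4E and EIF4E2 stood at 6.64 ± 0.14 and 9.92 ± 0.51 FPKM, and EIF4E3 and EIF4E1B at 0.780 ± 0.099 and 1.05 ± 0.18 FPKM. EIF4E3 shares 99.3% of its span with the protein-coding gene AC097634.4 on the same strand, which held 0 counts. The rest of its span lies within GPR27 on the other strand, which held 1350 counts, 109 to 329 a library. Both the level of EIF4E3 and the size of its fall are therefore uncertain. Whether reads from GPR27 entered its counts was not tested.

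Neighbouring genes were read beside all genes tested, of which 18.4% were called lower and 17.1% higher. Within 1 Mb of EIF4E1B, 15 of 40 other tested genes were lower and 2 higher, and their median was −0.16. Within 1 Mb of EIF4EBP1, 6 of 20 were lower and 0 higher (median −0.06). Around EIF4E3 only 4 genes were tested, of which 1 was lower. Factors that rose also had lower neighbours: 6 of 15 around EIF4A2 (2 higher), 19 of 57 around EEF2 (7 higher) and 3 of 10 around EEF1A1 (0 higher). Around EIF3H 1 of 5 was lower and 1 higher. Of the factors that fell, EEF1A2 had 11 of 48 lower and 3 higher, and EIF2S2 had 3 of 28 lower and 7 higher. No window was tested against all genes.

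Among the scaffolds, EIF4G3 and EIF4G2 moved in opposite directions. EIF4G3 (ENSG00000075151, chromosome 1, 20806292 to 21176888, minus strand), which encodes eIF4GII, stood at 92.4, 79.7 and 87.7 CPM in parental and 108, 112 and 109 CPM in resistant libraries. All resistant libraries were higher (log2 fold change 0.34, SE 0.05, FDR = 4.98e-08), and within 1 Mb of it 9 of 20 other genes were lower and 1 higher. EIF4G2, which encodes DAP5, a relative of eIF4G that does not bind eIF4E, was at 1108, 1066 and 1022 CPM in parental and 955, 941 and 917 CPM in resistant libraries, again without overlap (log2 fold change −0.18, SE 0.03, FDR = 1.90e-07). EIF4G1, the main eIF4G gene, was at 701 ± 9.61 and 667 ± 5.23 CPM. Its change was small (log2 fold change −0.07, FDR = 0.0219), and the call was lost in 5 of 14 alternatives. Per length the order in parental cells was EIF4G2 at 123 ± 4.94 FPKM, EIF4G1 at 84.9 ± 1.16 FPKM and EIF4G3 at 9.03 ± 0.670 FPKM, and it was the same in resistant cells.

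EIF4A2 (ENSG00000156976, chromosome 3, 186783205 to 186789900, plus strand), 1 of the genes for the eIF4A helicase, was at 237, 223 and 226 CPM in parental and 290, 278 and 275 CPM in resistant libraries. Every resistant library was above every parental one (log2 fold change 0.30, SE 0.03, FDR = 4.21e-10). For its paralog EIF4A1, usually the main eIF4A gene of dividing cells, the table held only 77 to 113 counts a library and no detectable difference (log2 fold change 0.05, 95% interval −0.29 to 0.38). EIF4A1 shares 95.4% of its span with the read-through gene SENP3-EIF4A1 on the same strand, and 13 genes named as EIF4A1 pseudogenes held 1264 counts, more than the 548 counts on EIF4A1. Its level is therefore uncertain, as is the EIF4A2 share of EIF4A1 plus EIF4A2, which was 97.2% ± 0.580 of the summed FPKM in parental and 97.7% ± 0.273 in resistant cells (difference 0.467 percentage points, exact permutation test, two-sided p = 0.3). The helicase EIF4A3, part of the exon junction complex, was not called (log2 fold change −0.02, FDR = 0.754). Neither were the eIF4A cofactors EIF4B (0.05, FDR = 0.128) and EIF4H (−0.05, FDR = 0.0927), although the groups did not overlap for either cofactor. In all, 2 of the 12 genes of eIF4F and its helpers rose, 4 fell and 6 did not pass the test, with a median log2 fold change of −0.03. The shares were 16.7% higher and 33.3% lower, beside 17.1% and 18.4% of all genes tested.

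**Figure D3:**
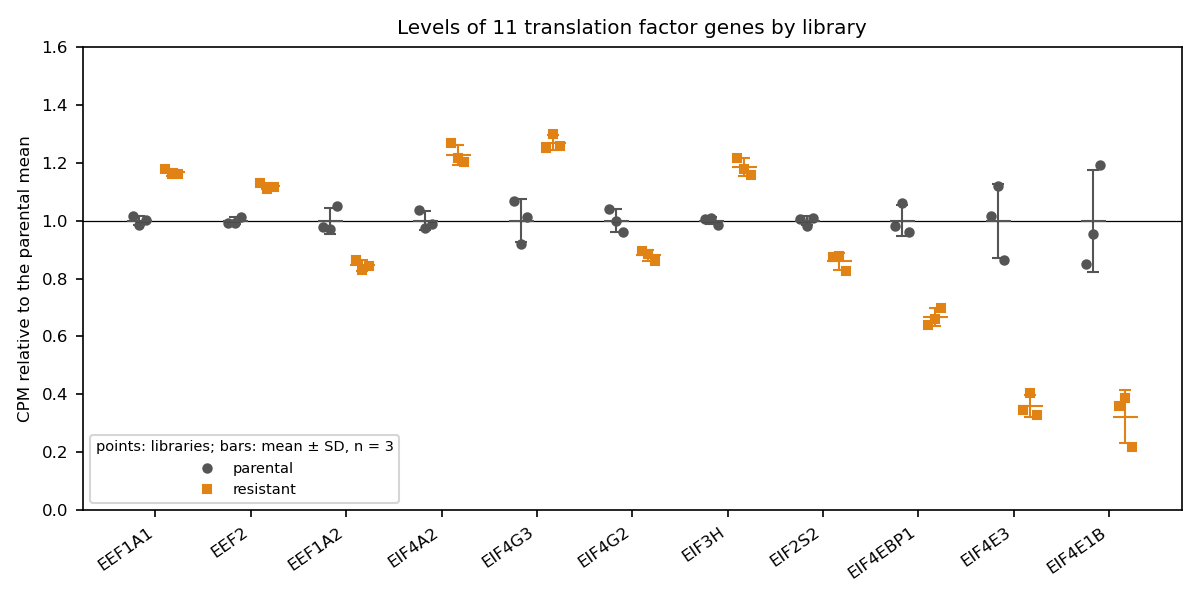
CPM of 11 translation factors in each library, divided by the gene's parental mean (y axis); points are libraries, bars mean ± SD, n = 3. EEF1A1, EEF2, EIF4A2, EIF4G3 and EIF3H lie above 1 in all 3 resistant libraries and the other 6 genes below 1, with no overlap between the groups.

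Of the 6 tested genes of eEF1 and eEF2, 2 rose, 1 fell and 3 did not pass the test (median log2 fold change 0.01). The shares were 33.3% higher and 16.7% lower, beside 17.1% and 18.4% of all genes tested. The 2 that rose, EEF1A1 and EEF2, were the most abundant of all factors, and their changes were small. EEF1A1 (ENSG00000156508, chromosome 6, 73515750 to 73523797, minus strand), which encodes the general form of eEF1A, was at 8678, 8407 and 8562 CPM in parental and 10084, 9920 and 9924 CPM in resistant libraries. All resistant libraries were above all parental libraries. The level was 16.7% higher (log2 fold change 0.22, SE 0.02, FDR = 2.66e-13). EEF2 (ENSG00000167658, chromosome 19, 3976056 to 3985469, minus strand), the translocation factor, was at 3992, 3992 and 4070 CPM in parental and 4537, 4457 and 4489 CPM in resistant libraries. It too did not overlap between groups and was 11.9% higher (log2 fold change 0.16, SE 0.02, FDR = 7.22e-09). In parental cells these were the 2 most abundant factors per length, at 1437 ± 22.8 and 998 ± 11.1 FPKM, followed by EIF5A at 318 ± 12.4 FPKM. EEF1A1 has 39 pseudogenes in the table, 20 of them with counts, which held 22388 counts against 883738 on EEF1A1. One of these, EEF1A1P5, had a log2 fold change of 0.26 (FDR = 1.97e-05), and whether reads were split between the gene and its copies was not tested.

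EEF1A2 (ENSG00000101210, chromosome 20, 63488012 to 63499322, minus strand), the second eEF1A gene, which in adult tissue is known from neurons and muscle, went the other way. Its level was 240, 238 and 258 CPM in parental and 212, 203 and 207 CPM in resistant libraries. Resistant libraries were all below the parental ones (log2 fold change −0.24, SE 0.03, FDR = 1.78e-07). EEF1A2 made up 3.24%, 3.32% and 3.52% of the summed FPKM of EEF1A1 and EEF1A2 in parental libraries and 2.49%, 2.42% and 2.46% in resistant libraries. The share was 3.36% ± 0.146 against 2.46% ± 0.0332 (n = 3), a difference of −0.902 percentage points (two-sided exact permutation p = 0.1).

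The exchange factors that recharge eEF1A with GTP did not pass the test. EEF1B2 was at 264 ± 2.37 and 255 ± 5.02 CPM (log2 fold change −0.05, 95% interval −0.11 to 0.01) and EEF1D at 111 ± 1.13 and 117 ± 2.71 CPM (0.07, 95% interval −0.01 to 0.15). The groups did not overlap for either gene, with resistant libraries lower for EEF1B2 and higher for EEF1D. EEF1E1, whose product sits in the multi-synthetase complex, was not called either (−0.08, FDR = 0.624). EEF1G, the gene of the gamma subunit, was listed at 0 counts in every library. It lies wholly within the read-through gene AP002990.1 on the same strand, which held 224 counts, so its level could not be read from the table. The read-through genes EEF1AKMT4-ECE2 and EEF1E1-BLOC1S5 also had 0 counts. They share stretches on the same strand with EEF1AKMT4 and ECE2 and with EEF1E1 and BLOC1S5, so their levels could not be read either. None of the 4 lysine methyltransferases of eEF1A was called. The lowest FDR among them was that of EEF1AKMT3 (log2 fold change −0.25, FDR = 0.0818), whose groups did not overlap. The levels of the 4 were low, between 5.68 and 12.9 CPM in the group means.

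Together the translation factors took 2.46%, 2.44% and 2.46% of the protein-coding counts in parental and 2.61%, 2.58% and 2.58% in resistant libraries. Every resistant library was higher, with a mean of 2.59% ± 0.0187 against 2.45% ± 0.0102 (difference 0.137 percentage points, two-sided exact permutation p = 0.1). EEF1A1 alone held 36.0% of the counts on translation factors in parental and 39.5% in resistant cells. Without EEF1A1 and EEF2, both called higher, the remaining factors took 1.15% ± 0.000802 in parental and 1.11% ± 0.00701 in resistant cells. The difference was −0.0464 percentage points (two-sided exact permutation p = 0.1), again with every resistant library on one side. Leaving out called risers favours a lower share, so no separate result is read from this value.

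**Figure D4:**
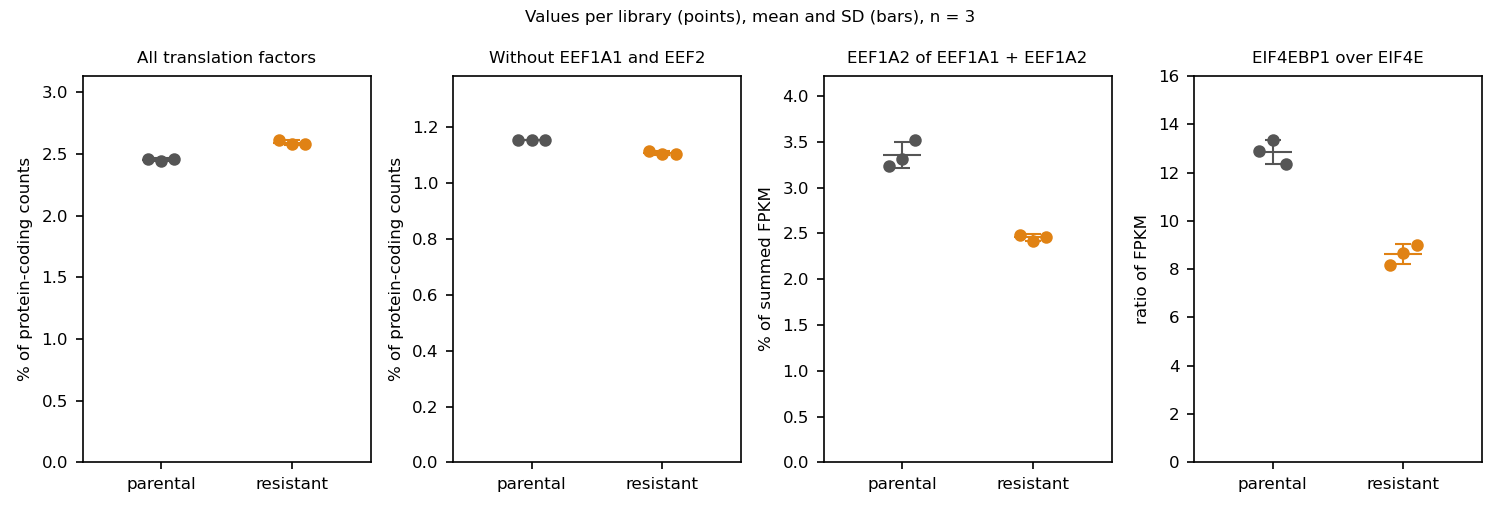
Values per library, from left to right: the share of protein-coding counts on all translation factors, the same without EEF1A1 and EEF2, the EEF1A2 share of summed EEF1A1 and EEF1A2 FPKM (all in percent), and the EIF4EBP1 to EIF4E ratio of FPKM. Points are libraries and bars mean ± SD, n = 3; the groups do not overlap in any panel, and resistant libraries are higher in the first panel and lower in the other 3.

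Of the factors for scanning and start-site choice, 1 of 9 rose, 4 fell and 4 did not pass the test (median log2 fold change −0.06). The shares were 11.1% higher and 44.4% lower, beside 17.1% and 18.4% of all genes tested. EIF1, which guards the accuracy of start-codon choice, was at 420, 399 and 411 CPM in parental and 370, 356 and 369 CPM in resistant libraries. The groups did not overlap (log2 fold change −0.17, SE 0.03, FDR = 8.03e-06). The other 3 that fell were EIF1B, a close relative of EIF1 (−0.23, FDR = 0.0174), EIF5B, which joins the ribosomal subunits (−0.11, FDR = 0.00712), and EIF1AX, a gene for eIF1A (−0.09, FDR = 0.0469). All 3 calls were lost in at least 1 alternative, and EIF1AX, just inside the threshold and with overlapping groups, was called in only 4 of 14. EIF2D, which encodes a factor that can deliver transfer RNA without eIF2, was the only one to rise, at 67.1, 66.3 and 68.9 CPM in parental and 75.3, 78.0 and 78.0 CPM in resistant libraries (log2 fold change 0.19, SE 0.05, FDR = 0.00105). EIF5, the GTPase activator of eIF2, had a log2 fold change of −0.06 (FDR = 0.149), and EIF1AY, the Y-linked gene for eIF1A, of 0.00 (FDR = 0.992).

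Within eIF2 the gene of the beta subunit was the only one called. EIF2S2 (ENSG00000125977, chromosome 20, 34088298 to 34112332, minus strand) was at 188, 183 and 189 CPM in parental and 163, 164 and 154 CPM in resistant libraries. The resistant libraries were all lower (log2 fold change −0.22, SE 0.03, FDR = 2.16e-06). RALY, on the other strand, covers 83.3% of the EIF2S2 span and held 22193 counts, against 16553 on EIF2S2. The part of this overlap in the change was not tested. EIF2S1, which encodes the alpha subunit that the stress kinases phosphorylate, was at 197 ± 5.08 and 187 ± 2.66 CPM without overlap but missed the threshold (−0.07, FDR = 0.0805). EIF2S3, the gamma subunit gene, did not differ beyond its spread (0.02, 95% interval −0.05 to 0.09), and its copy EIF2S3B, with 22 to 49 counts a library, had a wide interval (0.29, 95% interval −0.23 to 0.81).

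The 5 genes of eIF2B, the exchange factor that reloads eIF2 with GTP, had the smallest median absolute log2 fold change of all the groups, 0.04. None was called, with log2 fold changes of 0.09 for EIF2B1, 0.07 for EIF2B2, 0.04 for EIF2B3, 0.03 for EIF2B4 and 0.03 for EIF2B5. Their 95% intervals together ran from −0.10 to 0.23, and the lowest FDR was 0.136. The groups overlapped for all but EIF2B1, where every resistant library was higher.

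Of the 14 genes of eIF3, the large scaffold on the small ribosomal subunit, 4 were called higher, 3 were called lower and 7 did not pass the test. The shares were 28.6% higher and 21.4% lower, beside 17.1% and 18.4% of all genes tested. The extremes were the near-identical genes EIF3CL (ENSG00000205609, chromosome 16, 28379579 to 28403879, minus strand) and EIF3C (ENSG00000184110, chromosome 16, 28688558 to 28735730, plus strand). EIF3CL had 61, 52 and 52 counts in parental and 81, 514 and 66 counts in resistant libraries, so that 1 resistant library held most of them. EIF3C had 390, 376 and 817 counts in parental and 321, 191 and 471 counts in resistant libraries, with parental library 3 far above the others and overlapping groups. edgeR called both (log2 fold change 2.05, FDR = 7.79e-05, and −0.72, FDR = 0.00437), but each call rested on single libraries. Without resistant library 2, EIF3CL was at 0.38 (FDR = 0.185) and EIF3C at −0.49 (FDR = 0.0994), and without parental library 3, EIF3C was at −0.13 (FDR = 0.555). DESeq2 called neither (FDR = 0.0938 for EIF3CL and 0.359 for EIF3C). Summed as 1 gene, they had 451, 428 and 869 counts in parental and 402, 705 and 537 counts in resistant libraries and no detectable difference (log2 fold change −0.10, 95% interval −0.46 to 0.26, FDR = 0.718). Reads from copies this alike could have been assigned to either gene, and neither value is read as a change here.

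**Figure D5:**
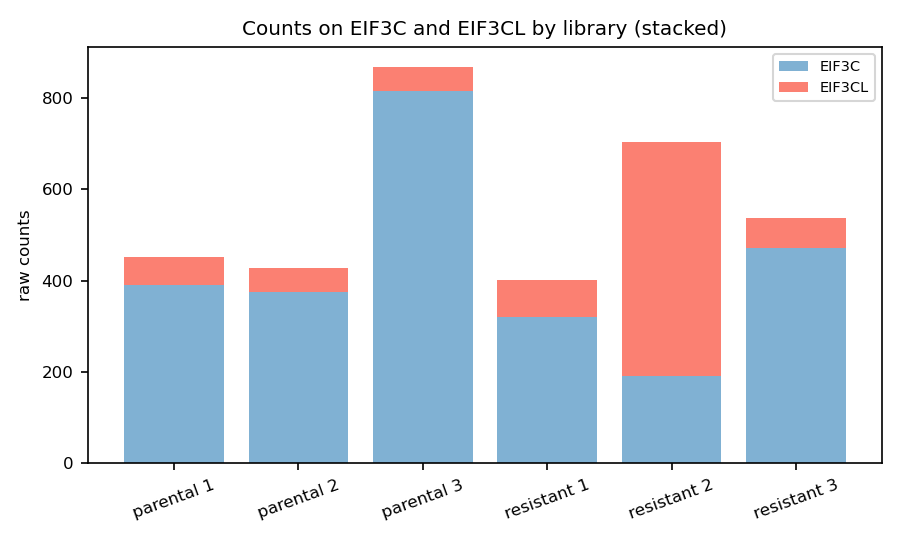
Raw counts on EIF3C (blue) and EIF3CL (red), stacked, in each of the 6 libraries. The red part is 52 to 81 counts except in resistant library 2, where it is 514, and the blue part is highest in parental library 3, at 817.

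The other 12 eIF3 genes changed by at most 0.24 in absolute log2 value, 3 higher, 2 lower and 7 not called. EIF3H led these, at 167, 168 and 164 CPM in parental and 203, 196 and 192 CPM in resistant libraries, with no overlap (log2 fold change 0.24, SE 0.03, FDR = 1.48e-07). EIF3L (0.16, FDR = 4.17e-05) and EIF3F (0.11, FDR = 0.0111) were also higher, the last of these not without resistant library 3 (FDR = 0.0984). EIF3J, a loosely bound subunit, was lower (−0.22, FDR = 1.64e-05), as was EIF3A, the largest subunit (−0.11, FDR = 6.34e-04). EIF3B (−0.06, FDR = 0.131) and EIF3G (0.03, FDR = 0.635) were among the 7 not called.

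EIF5A (ENSG00000132507), whose product carries the amino acid hypusine and helps ribosomes through difficult peptide bonds, was at 866, 934 and 887 CPM in parental and 800, 803 and 823 CPM in resistant libraries. All resistant libraries were below the parental ones (log2 fold change −0.15, SE 0.03, FDR = 1.27e-05). Its paralog EIF5A2 had 66 to 141 counts a library and was not called (−0.18, 95% interval −0.56 to 0.19). EIF6, which keeps the ribosomal subunits apart, was at 73.1 ± 3.99 and 75.7 ± 2.52 CPM (0.05, FDR = 0.478).

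Lists of neighbouring steps were read beside the factors. Of 21 regulators of eIF2 and eIF4F, 1 rose, PABPC1, the cytoplasmic poly(A)-binding protein (log2 fold change 0.07, FDR = 0.0272), and 7 fell (median −0.03). The regulators named next were chosen after their values were seen. Of the 4 eIF2 kinases, EIF2AK3, which encodes the endoplasmic reticulum kinase PERK, was at 27.6, 25.9 and 26.2 CPM in parental and 19.1, 19.9 and 20.8 CPM in resistant libraries, without overlap (−0.41, FDR = 3.84e-05). EIF2AK1, the heme-regulated kinase gene, fell from 330 ± 5.61 to 277 ± 1.65 CPM (−0.25, FDR = 1.94e-09), and EIF2AK2, the gene of the kinase PKR, also fell (−0.19, FDR = 2.08e-04). EIF2AK4, the gene of GCN2, was at 0.00. Both genes for the subunits that direct phosphatase to eIF2 fell too, PPP1R15A (−0.30, FDR = 5.56e-04) and PPP1R15B (−0.29, FDR = 5.31e-09), and so did PABPC4 and PAIP1.

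In the termination and recycling list, 1 of 8 rose and 3 fell (median −0.07). The riser, GSPT2, a gene for release factor eRF3, had 10, 13 and 7 counts in parental and 31, 34 and 27 counts in resistant libraries. The groups did not overlap (0.620 ± 0.139 against 1.95 ± 0.331 CPM, log2 fold change 1.62, SE 0.35, FDR = 2.40e-04). The 3 that fell were ABCE1, DENR and HBS1L, at −0.13 to −0.16. Of 9 mitochondrial translation factors, 4 rose and 0 fell, with 5 not passing the test (median 0.10). They were GFM1, the mitochondrial translocation factor (0.33, FDR = 1.31e-08), GFM2 (0.14, FDR = 0.0215), MRRF (0.14, FDR = 0.00663) and TUFM, the mitochondrial counterpart of eEF1A (0.10, FDR = 0.00535). GFM1 was at 87.5, 83.0 and 85.6 CPM in parental and 107, 109 and 108 CPM in resistant libraries. Of 10 genes for the modification of eIF5A and eEF2, 2 rose, DPH5 (0.21, FDR = 0.0142) and DPH6 (0.33, FDR = 5.03e-04), both for the diphthamide of eEF2, and 0 fell (median 0.11). Of 7 genes for selenocysteine insertion, 0 rose and 2 fell, SECISBP2 (−0.18, FDR = 9.23e-04) and SEPHS1 (−0.24, FDR = 1.30e-05), with a median of −0.04. Over all 55 of these genes, 8 rose and 12 fell (14.5% and 21.8%), near the 17.1% and 18.4% of all genes tested, with a median of 0.00. The single lists are small: the 7 of 21 regulators that fell made up 33.3%, and the 4 of 9 mitochondrial factors that rose 44.4%, and no difference of a list from all genes was tested.

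Counting without a stated strand setting limits several of these values. An overlapping protein-coding gene on the same strand was annotated for 11 of the 65 genes, and 1 on the other strand for 27, so that reads in shared stretches could not be assigned with certainty. Called factors were among the latter: EIF2S2 shared 83.3% of its span with RALY, EIF2D 44.1% with RASSF5 and EIF4G2 37.9% with CTR9.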

How the data were processed

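RNA-Seq libraries were grouped by their labels (vehicle or BL-B01D1; 3 each). The authors trimmed reads with fastp, aligned them to hg38 with HISAT2 (2.0.5) and counted them per gene with featureCounts (1.5.0-p3), per the labels and the methods of the study. The deposited values are raw counts. Gene length and position, the other columns the authors deposited, were used for FPKM and overlaps. The annotation release and the strand setting are not given in the sources used here. Columns with values per sample that went unused numbered 0.

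Counts were filtered (filterByExpr), scaled (TMM) and tested with edgeR 4.0.16 (glmQLFit, glmQLFTest; R 4.3.3), with Benjamini-Hochberg adjustment over 17142 genes. The median prior degrees of freedom were 36.1 and the biological coefficient of variation was 3.51%. CPM used TMM-scaled library sizes, and FPKM is CPM per kilobase of deposited gene length. A 95% interval is that of the model's coefficient. Floors of 3 counts cover counting error only. Single values were compared by exact permutation tests (scipy 1.17.1).

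Alternatives were limma-voom (limma 3.58.1), DESeq2 (1.42.0), no filter, library size alone, the upper quartile, protein-coding genes only, a minimum of 10 counts in each library, the replicate number as a block, and each library left out in turn. EIF3C and EIF3CL summed or left out, and robust prior degrees of freedom, were added after seeing the data. The members, groups and lists were chosen with earlier results of these data known. Genes named are those called with an absolute log2 fold change of at least 0.3, the members of eIF2, eIF2B, eIF4F, eEF1 and the 4E-BPs with EEF2, EIF5A, EIF5A2 and EIF6, the extremes of eIF3, genes not tested, genes at the edge of the threshold, and genes of other lists that were called with an absolute value over 0.5. Others were named after their values were seen. MTRFR, of the mitochondrial list, was not found under that name. The scripts were tested on simulated data. Human sequences and promoter motifs were not analysed here.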

Additional observations from a re-analysis of the deposited data

How the results depend on the processing

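Over 14 alternatives set for each result, no called translation factor turned its direction, and 17 (7 higher, 10 lower) also kept their call in all 14, whereas 7 lost the call in at least 1: EIF1AX, EIF1B, EIF3C, EIF3CL, EIF3F, EIF4G1 and EIF5B. The counts of higher and lower factors were 9 and 16 with limma-voom, 8 and 12 with DESeq2, 9 and 19 with library size alone and 12 and 13 with protein-coding genes only. In the same order, all 17142 genes tested gave 2905 and 3135, 2292 and 2540, and 2644 and 3473. With protein-coding genes only, 2851 of 13576 genes were higher and 2897 lower. No difference of the factors from these counts was tested. With an absolute log2 fold change over 1, the count of higher factors went from 1 to 0 with DESeq2, to 0 with robust prior degrees of freedom and to 0 without EIF3C and EIF3CL. With 1 library left out the counts ranged from 8 to 10 higher and 11 to 16 lower, and from 0 to 1 higher and 2 to 3 lower beyond 1. The median ranged from −0.01 to 0.00, the share of counts on the factors from 0.126 to 0.144 percentage points higher, the EEF1A2 share from −0.962 to −0.821, the EIF4A2 share from 0.299 to 0.803 and the EIF4EBP1 to EIF4E ratio from −4.49 to −3.99. Without EEF1A1 and EEF2 the share difference was −0.0464, opposite in sign, since those genes are left out by construction. From raw counts in place of FPKM, the EEF1A2 share differed by −0.752 and the EIF4EBP1 to EIF4E ratio by −0.323, since gene length is then not divided out. The cause of the other changes was not tested. Samples share only replicate numbers: deviations of same-numbered libraries correlated at −0.0081, −0.0196 and −0.0157, and 0 of 3 correlated best with their own number. With the replicate block 9 factors were higher and 15 lower, as without it. Few counts limit EIF4EBP3, EIF2S3B, EIF5A2, EIF4A1 and the methyltransferases, whose intervals reach beyond 0.3. Of these, EIF4EBP3, EIF4A1, EEF1AKMT2, EEF1AKMT3 and EEF1AKMT4 share 86.1% to 99.7% of their span with a protein-coding gene on the same strand. Whether depth or the assignment of reads set their counts was not tested.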
